A study of Homo sapiens with 12 samples.

Results

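Interferon-stimulated genes are the genes that a cell switches on when it senses interferon, and 45 of them were followed here across 12 RNA-seq libraries of human tumour xenografts. The members were chosen by name, from well-known antiviral and interferon-induced families, with earlier results of these data known. Each was found by matching its symbol to the Ensembl gene IDs of the deposited count tables. All 45 were matched, out of 60605 genes kept. Of these, 44 had enough reads to be tested. The exception, IFITM2, had 0 to 6 counts per library.

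The tumours were xenografts of Cal33, an established human line from a squamous carcinoma of the head and neck, and the series concerns blocking the partnership of YAP and TAZ with the TEAD transcription factors. Each of the 4 groups holds 3 libraries. The smTEADi group was treated with SW-682, a small-molecule TEAD inhibitor, and is compared with the Vehicle group. The pTEADi group carries a peptide TEAD inhibitor and received DOX (DOX+), while its Control group did not (DOX-). DOX and the inhibitor it switches on therefore cannot be told apart in that comparison. All 4 groups share the same cell line, which is a single human model. The labels used here give no dose, duration, host strain or animal age, and they do not state whether replicate libraries derive from different animals. The p-values therefore measure only the spread between these samples.

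Type I and type III interferons bind receptors on the cell surface, and the attached JAK kinases phosphorylate STAT transcription factors. Together with IRF9 these form a complex that binds interferon-stimulated response elements in promoters and turns on antiviral effectors. The effectors degrade or sequester viral RNA (OAS and IFIT families), block entry or release of viral particles (IFITM proteins and BST2), trap viral components (MX proteins), and tag proteins with the ubiquitin-like ISG15. Tumour cells can also express these genes in the absence of infection.

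The response element can be seen in the promoters of many members. RefSeq windows of 250 bases before to 50 bases after a gene's start (GRCh38.p14) were found for 37 of the 45 members, 51 windows in all. The letters GAAANNGAAA, the core of the element, or TTTCNNTTTC on the other strand, occurred in 26 of these 37 members (70.3%), against 4.38% of all 27305 genes with a window. The promoters of 8 members are printed from 160 bases before to 20 bases after the start, 5′ to 3′ on the gene's strand, with each core match in capitals and overlapping matches merged. ISG15, IFI6, IFIT3 and DDX60 are shown because they were among the members with large falls, BST2 and OAS3 as highly expressed members, IFIT5 as the IFIT gene that fell least, and SAMD9 because it holds a match and did not pass the test. In order, the stretches lie at chr1:1013337-1013516, plus strand, chr1:27672173-27672352, minus strand, chr10:89327837-89328016, plus strand, chr10:89414408-89414587, plus strand, chr12:112938314-112938493, plus strand, chr4:168318733-168318912, minus strand, chr19:17405611-17405790, minus strand and chr7:93117960-93118139, minus strand.
ISG15: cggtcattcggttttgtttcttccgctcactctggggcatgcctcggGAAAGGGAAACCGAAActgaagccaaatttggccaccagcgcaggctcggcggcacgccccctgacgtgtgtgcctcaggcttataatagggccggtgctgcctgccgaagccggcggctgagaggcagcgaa
IFI6: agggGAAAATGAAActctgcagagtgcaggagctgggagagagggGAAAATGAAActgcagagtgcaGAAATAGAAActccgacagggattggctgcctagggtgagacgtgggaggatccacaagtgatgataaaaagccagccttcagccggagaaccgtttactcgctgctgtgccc
IFIT3: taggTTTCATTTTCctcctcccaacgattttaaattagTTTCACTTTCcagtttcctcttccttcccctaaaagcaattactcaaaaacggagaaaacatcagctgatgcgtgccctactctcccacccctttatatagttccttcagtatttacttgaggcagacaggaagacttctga
IFIT5: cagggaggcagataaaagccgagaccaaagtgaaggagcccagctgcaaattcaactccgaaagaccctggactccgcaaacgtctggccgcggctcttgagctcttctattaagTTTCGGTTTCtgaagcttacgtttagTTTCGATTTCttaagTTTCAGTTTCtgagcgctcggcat
OAS3: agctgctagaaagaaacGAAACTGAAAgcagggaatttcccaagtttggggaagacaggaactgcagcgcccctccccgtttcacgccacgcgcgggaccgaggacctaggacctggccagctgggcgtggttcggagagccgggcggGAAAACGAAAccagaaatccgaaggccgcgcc
DDX60: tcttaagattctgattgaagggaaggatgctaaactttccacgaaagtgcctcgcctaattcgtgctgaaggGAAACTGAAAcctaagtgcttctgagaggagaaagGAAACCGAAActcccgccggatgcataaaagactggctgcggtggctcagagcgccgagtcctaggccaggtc
BST2: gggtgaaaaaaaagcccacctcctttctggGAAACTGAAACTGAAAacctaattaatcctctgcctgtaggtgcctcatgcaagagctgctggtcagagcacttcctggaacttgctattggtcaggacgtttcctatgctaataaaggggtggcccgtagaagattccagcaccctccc
SAMD9: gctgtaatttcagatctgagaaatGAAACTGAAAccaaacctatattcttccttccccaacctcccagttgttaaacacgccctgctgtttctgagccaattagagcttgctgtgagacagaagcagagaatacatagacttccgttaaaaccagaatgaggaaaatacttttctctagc

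The printed stretches were all picked from members with a core match, so each holds at least 1. None of the 11 members without a match is printed, CMPK2 among them. IFI6 holds 3 separate matches, IFIT5 holds 3, and OAS3 and DDX60 hold 2 each. In ISG15 and in BST2, 2 overlapping matches form a single run. A match describes letters in a window and is not evidence of a bound factor, and no match says only that the letters are not in that window. Other spacings of the GAAA letters were not counted. The STAT site letters TTCNNNGAA, palindromic, occurred in 11 of the 37 members (29.7%) and in 9.38% of all genes. The TEAD site letters GGAATG, or CATTCC on the other strand, occurred in 5 of the 37 (13.5%: IFIT1, IFIT3, PARP14, IFI35 and RSAD2) and in 16.7% of all genes.

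Levels are given as CPM, the share of a library's counts on a fixed scale, after TMM scaling, a method that corrects for differences in library composition, and as RPKM, CPM per kilobase of the gene's main transcript, where genes are compared with each other. A gene is called changed when edgeR's quasi-likelihood test gave a Benjamini-Hochberg adjusted p under 0.05 over all genes tested. Fold changes are log2 values, treated over control, with their standard error. Library totals were 13572226 to 15429231 counts, with 14540 to 14878 genes at 10 or more counts. The squamous markers of the labelled tumour were all detected. Their summed CPM was 55450 to 75280 in Vehicle and 42460 to 60200 with SW-682. It was 66280 to 79610 in Control and 65630 to 78970 with pTEADi. Markers of T cells, NK cells and plasmacytoid dendritic cells were at 0 in every library for 5 of 7 genes, and those of macrophages and other leukocytes for 4 of 12 (AIF1, CD163, MRC1 and TYROBP). Others of these 12 were detected: CD68 at 71 to 503 counts per library, CD74 at 156 to 390, ITGAM at 50 to 87, CD14 at 16 to 66 and CSF1R at 13 to 82. The handling of mouse reads is not given, so these human counts do not show whether host leukocytes were absent.

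In both experiments the interferon-stimulated genes were lower in the treated tumours. The summed CPM of the 44 tested members was 4161, 3832 and 4476 in the Vehicle libraries, and 2015, 2697 and 2703 in the SW-682 libraries. It was 4664, 5179 and 4196 in the Control libraries, and 2235, 2135 and 2231 in the pTEADi libraries. The treated and untreated libraries did not overlap in either experiment. The group means were 4156 ± 322 and 2472 ± 396 for Vehicle and SW-682, and 4680 ± 492 and 2200 ± 56.6 for Control and pTEADi (SD, n = 3 each). In bulk tumours, fewer cells of a type and less RNA per cell cannot be told apart.

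**Figure D1:**
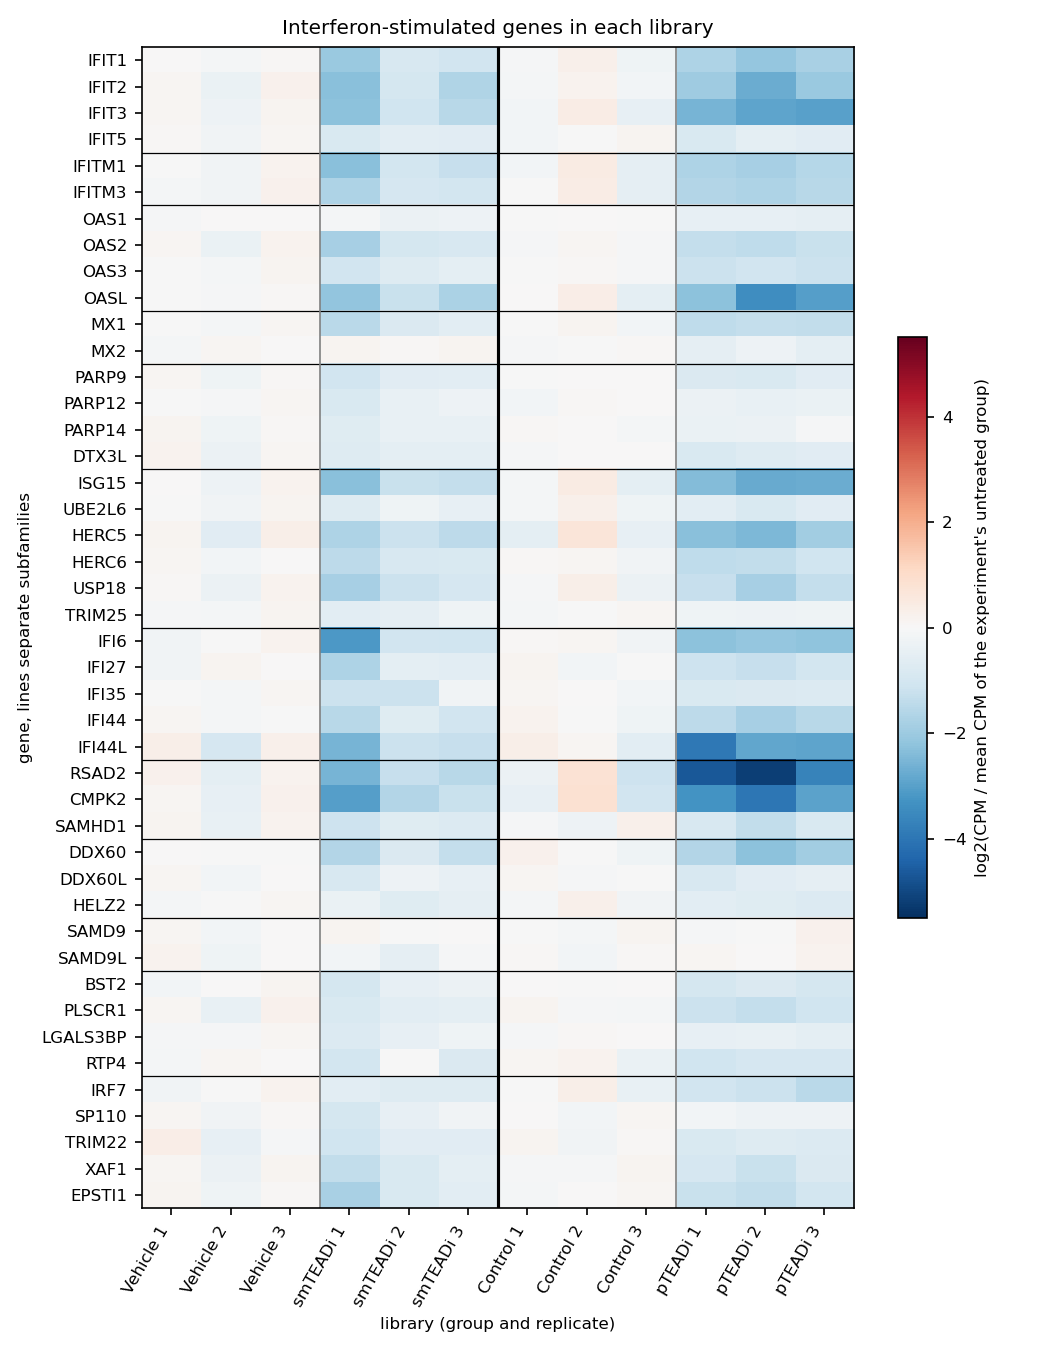
Level of each tested member in each library, on a log2 scale relative to the mean of its own control group, with the members arranged by subfamily and the 12 libraries by group. Most rows are blue in the smTEADi and pTEADi columns, the RSAD2, CMPK2 and IFI44L rows are among the darkest in pTEADi, and the SAMD9 row is pale throughout.

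With SW-682, 24 of 44 members fell and none rose, against 3.48% of all genes tested that fell. The median log2 fold change of the members was -0.80, beside 0.011 over all genes, and 42 of 44 were negative. The range ran from -1.77 ± 0.37 for CMPK2 to 0.13 ± 0.10 for MX2. The called members sat close to the threshold, with adjusted p of 0.0364 to 0.0446. At an unadjusted p under 0.05, 40 of 44 were lower, against 14.0% of all genes. Likewise 40 of 44 had every SW-682 library below every Vehicle library, against 17.1% of all genes, and 17 had a log2 fold change under -1, against 2.61% of all genes. DESeq2 called 37 members lower, with 8.01% of all genes called lower by that tool. The edgeR count became 0 without Vehicle 1, without Vehicle 3 or without smTEADi 3, fits in which 0 of all genes tested passed, and 13 without smTEADi 2, while all 24 kept their sign each time. The SW-682 calls of single members given below were thus all lost in those 3 fits.

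With pTEADi, 40 of 44 members fell and none rose, against 13.6% of all genes tested that fell. Their median log2 fold change was -1.14, beside -0.001 over all genes. It ranged from -4.36 ± 0.51 for RSAD2 to 0.09 ± 0.11 for SAMD9L. In 41 of 44 members every pTEADi library was below every Control library, against 21.5% of all genes, and 24 had a log2 fold change under -1, against 3.45%. The 4 members that did not pass were PARP14, SP110, SAMD9 and SAMD9L. Leaving out any single library left 37 or 38 members called, with 2327 to 4377 of all genes passing in those fits.

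The libraries of a group were not equally low. The smTEADi 1 library was the lowest of its group in 38 of 44 members, with a median of 44.5% of the Vehicle mean, against 61.9% in smTEADi 2 and 65.7% in smTEADi 3. Vehicle 2 was the lowest Vehicle library in 35 members. The pTEADi libraries were closer together, at medians of 46.5%, 42.6% and 49.8% of the Control mean. Without smTEADi 1 the SW-682 median was -0.66 with 21 members called, where 338 of 15078 genes passed. Without Vehicle 2 it was -0.89 with 29 called, where 1639 of 15114 genes passed. Control 2 was the highest Control library in 24 members.

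The IFIT genes, which encode proteins that bind viral RNA lacking a host cap structure, fell together: 4 of 4 with SW-682 and 4 of 4 with pTEADi. The family lies in 138 kb of chromosome 10 (positions 89283694 to 89421605, GRCh38). IFIT3, a partner that stabilises IFIT1, stood at 90.1, 68.4 and 93.4 CPM in the Vehicle libraries and 17.6, 39.6 and 29.1 with SW-682. In the other experiment IFIT3 stood at 78.0, 115 and 63.5 CPM in Control and 14.6, 11.4 and 10.9 with pTEADi. Every treated library was below every control library, and the log2 fold changes were -1.55 ± 0.25 (adjusted p = 0.0364) and -2.80 ± 0.21 (adjusted p = 1.26e-05). IFIT1, the cap-sensing member, had 61.0, 55.9 and 63.8 CPM in Vehicle and 14.5, 33.1 and 28.9 with SW-682. It had 48.3, 61.0 and 42.3 CPM in Control and 15.5, 11.7 and 14.6 with pTEADi, so the groups were again apart. Its log2 fold changes were -1.24 ± 0.24 and -1.86 ± 0.15, and those of IFIT2 were -1.53 ± 0.29 and -2.21 ± 0.17. IFIT5 fell least of the family, by 0.68 ± 0.14 and 0.67 ± 0.16 on the log2 scale, and its printed promoter holds 3 core matches. The IFIT1, IFIT2 and IFIT3 genes overlap the antisense gene LIPA, and the counting is not stated to use strand.

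The IFITM proteins sit in membranes and hinder virus fusion. Both tested members fell in both experiments, and the third, IFITM2, is a near-identical neighbour on chromosome 11 whose reads may be assigned to IFITM1 or IFITM3, or the reverse. IFITM2 had 1, 0 and 2 counts in Vehicle, 0, 0 and 1 with SW-682, 2, 6 and 6 in Control and 0, 0 and 2 with pTEADi. These counts were too few to test. IFITM3, which acts in endosomes, had 149.8, 139 and 189.7 CPM in Vehicle and 49.8, 84.5 and 79.0 with SW-682. It had 288, 386 and 211 CPM in Control and 96.8, 92.2 and 103 with pTEADi. In every case the treated libraries were lower, by log2 fold changes of -1.17 ± 0.19 (adjusted p = 0.0364) and -1.60 ± 0.17 (adjusted p = 9.3e-05). IFITM1, which acts at the plasma membrane, had 29.5, 26.3 and 34.7 CPM in Vehicle against 6.20, 15.1 and 12.7, and 41.3, 62.7 and 32.5 in Control against 14.1, 12.8 and 15.4. Its log2 fold changes were -1.42 ± 0.27 and -1.70 ± 0.21.

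The OAS enzymes sense double-stranded RNA and make a short oligoadenylate messenger, while OASL is a relative without that activity. With SW-682, 3 of 4 fell, and with pTEADi all 4 did. OASL stood at 202, 194 and 217 CPM in Vehicle and 44.9, 87.2 and 62.1 with SW-682. It stood at 305, 380.3 and 207 CPM in Control and 63.0, 28.1 and 36.4 with pTEADi. Its groups were widely apart, at log2 fold changes of -1.66 ± 0.20 (adjusted p = 0.0364) and -2.82 ± 0.27 (adjusted p = 4.84e-05). OAS3, the largest OAS enzyme, had 156, 148 and 176 CPM in Vehicle against 78.1, 98.5 and 109. In the peptide experiment it had 160.1, 166 and 156 CPM in Control against 70.7, 76.8 and 70.1. OAS3 fell by 0.75 ± 0.13 and 1.15 ± 0.08 on the log2 scale, and OAS2 fell by 1.18 ± 0.23 and 1.32 ± 0.10. OAS1 is next to OAS3 and OAS2 on chromosome 12 (112905856 to 113011723 for the 3 genes), and moved least: -0.24 ± 0.10 with SW-682 (adjusted p = 0.154, not passed) and -0.47 ± 0.08 with pTEADi (adjusted p = 0.00145). Its window holds no match to GAAANNGAAA, but it holds the letters gaaacgaaa, a closer spacing that the pattern does not count.

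The MX genes, GTPases that trap viral nucleocapsids, split. MX1 had 137, 131 and 151 CPM in Vehicle and 49.9, 81.5 and 92.6 with SW-682, and 114, 129.7 and 104 in Control and 44.5, 47.2 and 45.1 with pTEADi. It fell in both, with log2 fold changes of -0.91 ± 0.19 (adjusted p = 0.0396) and -1.35 ± 0.10 (adjusted p = 1.26e-05). MX2, its neighbour on chromosome 21, had 29.7, 34.7 and 32.8 CPM in Vehicle and 35.6, 34.1 and 36.5 with SW-682, and these overlapped. MX2 had 19.5, 20.5 and 21.7 CPM in Control and 14.5, 17.2 and 14.2 with pTEADi, where the groups did not overlap. Its log2 fold change was 0.13 ± 0.10 with SW-682 (adjusted p = 0.452) and -0.43 ± 0.12 with pTEADi (adjusted p = 0.0239). The pTEADi call of MX2 was lost without Control 1 (adjusted p = 0.0507), Control 3 (0.0532), pTEADi 1 (0.0869) or pTEADi 3 (0.0857), and the alternatives spanned 0.0127 to 0.0869.

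The PARP genes of this set encode proteins of the ADP-ribosyltransferase family, and DTX3L is the ubiquitin ligase that works with PARP9. Their falls were small: 2 of 4 passed with SW-682 and 3 of 4 with pTEADi, with medians of -0.55 in both. PARP14, which had the highest mean CPM of this group over the 12 libraries but not in Control, had 134, 102 and 125 CPM in Vehicle and 75.0, 89.8 and 89.6 with SW-682. It had 85.1, 83.1 and 76.8 CPM in Control and 62.6, 65.5 and 78.8 with pTEADi, and the latter groups overlapped. Neither passed, at -0.50 ± 0.13 (adjusted p = 0.0509) and -0.25 ± 0.10 (adjusted p = 0.0911). DTX3L had 112, 78.3 and 104 CPM in Vehicle against 60.1, 68.4 and 67.9, and 76.2, 80.3 and 80.9 in Control against 44.7, 48.0 and 51.7. DTX3L fell by 0.59 ± 0.14 and 0.72 ± 0.09 on the log2 scale, with no overlap between groups. PARP9 fell by 0.73 ± 0.15 and 0.75 ± 0.09, close to DTX3L, with which it shares a start region in opposite orientation and whose reads cannot be fully separated without strand. PARP12 had log2 fold changes of -0.48 ± 0.14 (adjusted p = 0.0635) and -0.37 ± 0.09 (adjusted p = 0.00918), and lost the pTEADi call without pTEADi 2 (adjusted p = 0.0514, with 0.00346 to 0.0514 over the alternatives).

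**Figure D2:**
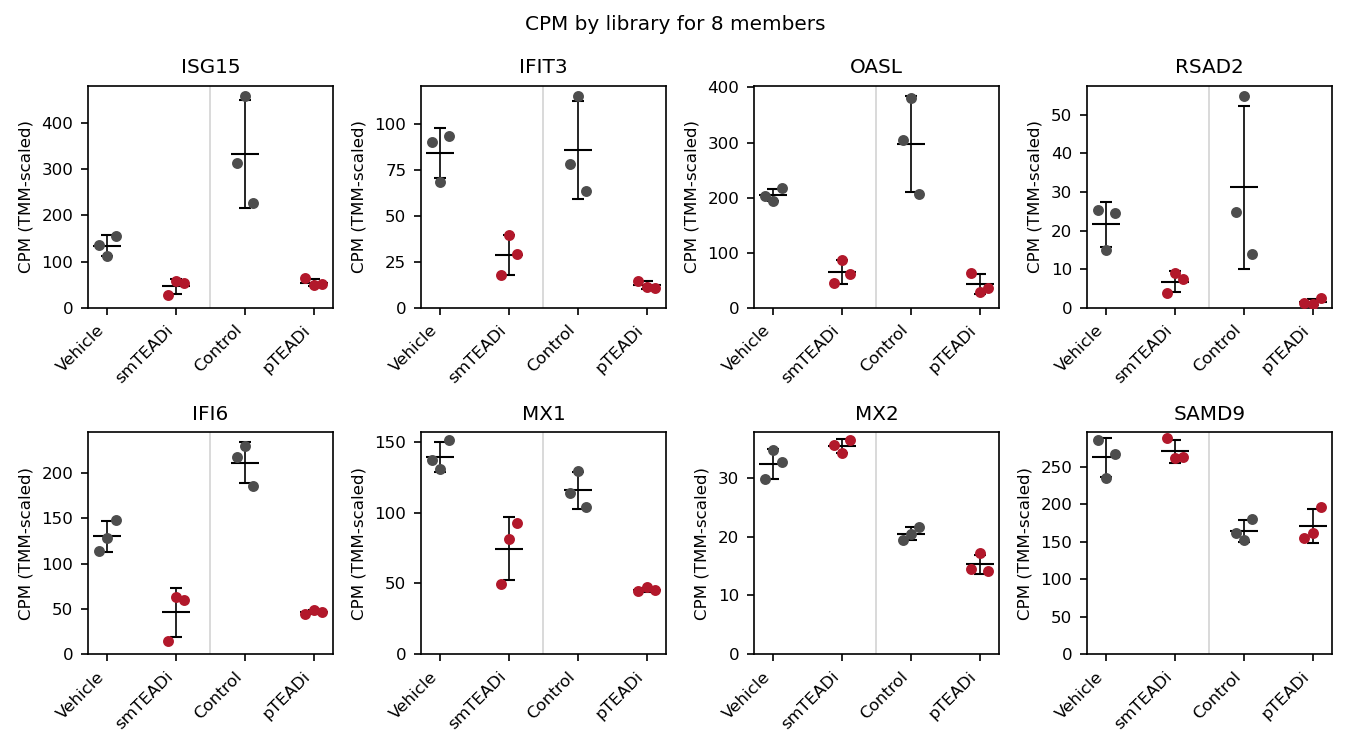
CPM of 8 members in each library, with points for libraries and bars for the group mean with its SD (n = 3). The treated points lie below the control points in both experiments for ISG15, IFIT3, OASL, RSAD2, IFI6 and MX1, and with pTEADi for MX2, while the MX2 points with SW-682 and the SAMD9 points in both experiments overlap their controls.

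ISG15 is a ubiquitin-like protein, UBE2L6, HERC5, HERC6 and TRIM25 are enzymes of its conjugation or related ligases, and USP18 removes it. With SW-682, 4 of these 6 fell, and with pTEADi all 6 did. ISG15 stood at 137, 112 and 156 CPM in Vehicle and 27.5, 58.2 and 53.8 with SW-682. It stood at 313, 458 and 227 CPM in Control and 64.6, 49.0 and 50.5 with pTEADi. The groups were far apart, with log2 fold changes of -1.54 ± 0.25 (adjusted p = 0.0364) and -2.61 ± 0.22 (adjusted p = 2.41e-05). HERC5, the main ISG15 ligase in human cells, fell by 1.43 ± 0.25 and 2.22 ± 0.32, and HERC6 by 1.03 ± 0.16 and 1.29 ± 0.12. USP18 fell by 1.28 ± 0.24 and 1.45 ± 0.23. TRIM25 had 78.5, 76.7 and 91.6 CPM in Vehicle against 55.3, 59.1 and 69.2, and 63.9, 66.5 and 73.4 in Control against 57.0, 55.9 and 57.4. Both pairs of groups were apart, but the changes were small: -0.43 ± 0.12 (adjusted p = 0.0601, not passed) and -0.27 ± 0.09 (adjusted p = 0.0423). That TRIM25 call was lost when any single Control or pTEADi library was left out (adjusted p of 0.0538 to 0.144). UBE2L6 gave -0.44 ± 0.14 (adjusted p = 0.0799) and -0.68 ± 0.13 (adjusted p = 0.00306).

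The IFI genes are a loose group named for their induction by interferon. IFI6 and IFI27 encode small mitochondrial or endoplasmic reticulum proteins, and IFI44 and IFI44L are neighbours on chromosome 1. With SW-682 only IFI44 passed of 5, whereas with pTEADi all 5 fell; every member was lower without overlap in both. IFI6 had 114, 129 and 148 CPM in Vehicle and 14.7, 63.7 and 60.2 with SW-682, where smTEADi 1 was far below the other two libraries. It had 218, 229.9 and 186 CPM in Control and 44.2, 48.6 and 46.2 with pTEADi. Its log2 fold change was -1.50 ± 0.41 with SW-682 (adjusted p = 0.0601, not passed) and -2.19 ± 0.10 with pTEADi (adjusted p = 5.4e-07). IFI27 had 214, 276 and 251 CPM in Vehicle against 77.0, 172 and 167, and 343, 273 and 299 in Control against 139.5, 128 and 152. Its log2 fold changes were -0.84 ± 0.26 (adjusted p = 0.077) and -1.13 ± 0.10 (adjusted p = 3.88e-05). IFI44 fell by 1.05 ± 0.18 and 1.60 ± 0.13, IFI44L gave -1.56 ± 0.39 (adjusted p = 0.0505) and fell by 3.15 ± 0.32, and IFI35 gave -0.78 ± 0.26 (adjusted p = 0.0908) and fell by 0.81 ± 0.13.

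The steepest falls were in RSAD2 and CMPK2, adjacent genes on chromosome 2 (6840570 to 6898239) whose products cooperate: RSAD2, or viperin, converts a nucleotide into a chain terminator, and CMPK2 supplies nucleotides. RSAD2 stood at 25.4, 14.9 and 24.5 CPM in Vehicle and 3.72, 9.05 and 7.48 with SW-682. It stood at 24.9, 54.7 and 14.0 CPM in Control and 1.22, 0.866 and 2.44 with pTEADi. The pTEADi libraries held 16, 12 and 35 counts of RSAD2. The log2 fold changes were -1.68 ± 0.31 (adjusted p = 0.0364) and -4.36 ± 0.51 (adjusted p = 0.00015), leaving a fitted 31.3% and 4.88% of the control level. CMPK2 had 13.4, 9.01 and 14.7 CPM in Vehicle against 1.53, 4.03 and 5.34, and 10.8, 26.2 and 7.09 in Control against 1.52, 0.938 and 1.88. It fell by 1.77 ± 0.37 and 3.34 ± 0.47 on the log2 scale. The start regions of the 2 genes overlap on opposite strands, so reads there cannot be told apart without strand. SAMHD1, which breaks down the nucleotides needed for reverse transcription, had 92.9, 63.8 and 95.3 CPM in Vehicle against 38.3, 53.7 and 50.3, and 68.5, 58.7 and 85.2 in Control against 38.5, 27.6 and 39.1. SAMHD1 fell by 0.83 ± 0.17 and 1.02 ± 0.15.

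Among the helicase genes, DDX60, reported to promote RIG-I signalling, fell most. DDX60 had 264, 259 and 256 CPM in Vehicle and 83.9, 149.7 and 103 with SW-682, and 285, 238 and 203 in Control and 80.4, 50.2 and 64.1 with pTEADi. It fell by 1.21 ± 0.18 (adjusted p = 0.0364) and 1.91 ± 0.16 (adjusted p = 2.64e-05), with the groups apart. HELZ2, a nuclear receptor co-activator, had 167, 181 and 198 CPM in Vehicle against 139.9, 113 and 129, and 249, 328 and 236 in Control against 182, 169 and 160. HELZ2 fell by 0.51 ± 0.12 and 0.68 ± 0.12. DDX60L, the neighbour of DDX60, gave -0.53 ± 0.16 (adjusted p = 0.0782) and -0.66 ± 0.13 (adjusted p = 0.00411).

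SAMD9 and SAMD9L, neighbours on chromosome 7 that restrict poxviruses, did not pass in either experiment. SAMD9 had 286, 235 and 267 CPM in Vehicle and 288, 261 and 263 with SW-682, and 162, 152 and 181 in Control and 155, 161 and 196 with pTEADi. The groups overlapped in both, at 0.04 ± 0.11 (adjusted p = 0.824) and 0.05 ± 0.11 (adjusted p = 0.776). SAMD9L had 44.5, 32.5 and 38.6 CPM in Vehicle and 35.2, 27.3 and 37.4 with SW-682, and 22.6, 19.7 and 22.8 in Control and 23.2, 21.7 and 24.8 with pTEADi. Its groups also overlapped, at -0.21 ± 0.15 (adjusted p = 0.398) and 0.09 ± 0.11 (adjusted p = 0.584).

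Of the membrane or secreted members, none of 4 passed with SW-682 and all 4 fell with pTEADi. At an unadjusted p under 0.05, 3 of the 4 were lower with SW-682 in edgeR, against 14.0% of all genes. LGALS3BP, a secreted galectin-binding glycoprotein, had 405, 404 and 463 CPM in Vehicle against 255, 310.1 and 357, and 536, 597 and 567 in Control against 411, 425 and 392. Its log2 fold changes were -0.47 ± 0.13 (adjusted p = 0.0671) and -0.47 ± 0.09 (adjusted p = 0.00235), and the groups did not overlap in either. BST2, or tetherin, which holds budding virus at the cell surface, had 248, 276 and 301 CPM in Vehicle against 141, 202 and 218, and 372, 359 and 371 in Control against 189, 209 and 189.7. BST2 gave -0.56 ± 0.16 (adjusted p = 0.0632) and fell by 0.91 ± 0.08 (adjusted p = 3.88e-05). PLSCR1, a phospholipid scramblase, gave -0.65 ± 0.17 (adjusted p = 0.0528) and fell by 1.19 ± 0.11. RTP4, a receptor-transporting protein at 3.82 CPM on average in Vehicle and 3.53 in Control, gave -0.54 ± 0.30 (adjusted p = 0.266) and -0.96 ± 0.27 (adjusted p = 0.0224). Its pTEADi call was lost when any Control or pTEADi library other than Control 3 was left out (adjusted p of 0.0583 to 0.0785).

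The last group holds regulators: IRF7, the factor that amplifies interferon production, XAF1, a pro-apoptotic protein, the antiviral ubiquitin ligase TRIM22, the nuclear body protein SP110, and EPSTI1. With SW-682, 2 of 5 fell, and with pTEADi 4 of 5. XAF1 had 51.2, 38.1 and 51.9 CPM in Vehicle against 18.7, 26.0 and 32.0, and 30.0, 30.1 and 35.1 in Control against 16.7, 13.7 and 18.1. XAF1 fell by 0.88 ± 0.19 and 0.98 ± 0.13 on the log2 scale. IRF7 had 24.0, 26.5 and 30.9 CPM in Vehicle against 18.3, 16.4 and 16.4, and 48.0, 60.4 and 36.2 in Control against 23.2, 21.1 and 17.5. IRF7 fell by 0.67 ± 0.14 (adjusted p = 0.0382) and 1.23 ± 0.17 (adjusted p = 0.000412). EPSTI1 gave -0.98 ± 0.26 (adjusted p = 0.0558) and fell by 1.19 ± 0.15 with pTEADi. TRIM22 gave -0.77 ± 0.22 (adjusted p = 0.0632) and fell by 0.77 ± 0.15. SP110 passed in neither, at -0.51 ± 0.18 (adjusted p = 0.113) and -0.24 ± 0.12 (adjusted p = 0.176).

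By length-corrected level, the highest members in Control tumours were ISG15 at 522 ± 183 RPKM, IFITM3 at 482 ± 144, IFI27 at 421 ± 49.3, BST2 at 367 ± 7.33, IFI6 at 260.2 ± 27.8 and LGALS3BP at 257 ± 13.9 (mean ± SD, n = 3). Neighbours in this order had overlapping ranges of mean ± SD, except BST2 and IFI6. In Vehicle tumours the order began with IFI27 at 341 ± 42.6 RPKM, BST2 at 275 ± 26.6, IFITM3 at 261 ± 43.6, ISG15 at 211 ± 34.8, LGALS3BP at 193 ± 15.6 and IFI6 at 160.3 ± 21.4. There every pair of neighbours overlapped within 1 SD. Across the 44 members, level and fold change showed little relation. Pearson's r between log2 RPKM and log2 fold change was -0.048 for SW-682 and -0.094 for pTEADi. The members with windows that hold a core match had median log2 fold changes of -0.87 and -1.19 (26 members), and those without had -0.51 and -0.68 (11 members), for SW-682 and pTEADi. The 2 sets overlapped widely, since CMPK2 holds no match and SAMD9 does. The set without a match is defined by this pattern alone. In it, windows of CMPK2, IFI35, TRIM25 and XAF1 hold GAAA letters at the closer spacing seen in OAS1, on either strand. The medians therefore do not compare promoters with and without the response element.

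Both experiments gave similar rankings of the members. The log2 fold changes correlated at Pearson's r = 0.909 and Spearman's rho = 0.957 across the 44 members. This describes the members only: genes are not independent replicates, and the comparisons share no libraries. Of the 44, 24 fell in both, against 3.27% of the 14371 genes tested in both. Another 16 passed with pTEADi and not with SW-682, and 4 passed in neither. A call in 1 experiment only does not show a difference between them, which was tested separately. In 39 of 44 every treated library was below every control library in both experiments, against 11.4% of all genes tested in both, and the exceptions were MX2, PARP14, SAMD9, SAMD9L and RTP4. The estimate was lower with pTEADi for 37 of 44, against 48.5% of all genes.

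**Figure D3:**
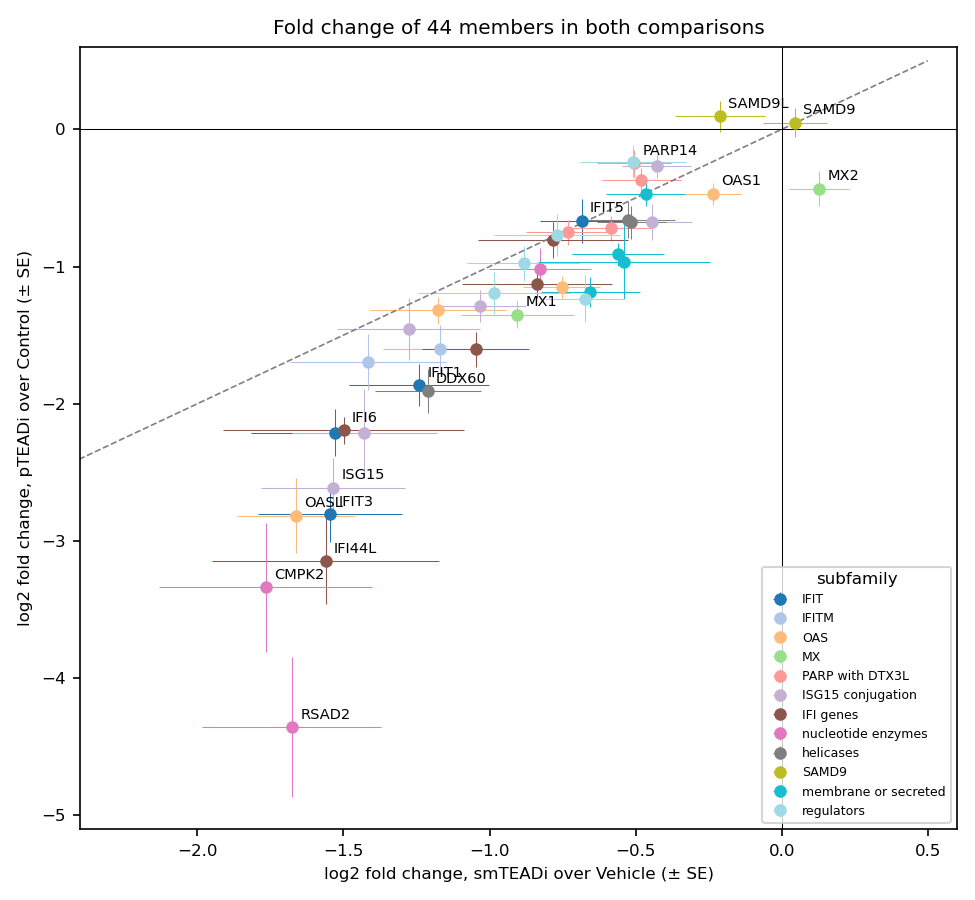
Log2 fold change of each tested member with SW-682 (horizontal) and with pTEADi (vertical), with standard errors as bars and a line of equality. The points follow a rising band and most lie below the line, with RSAD2 at the bottom and SAMD9 and SAMD9L near 0 on both axes.

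Whether the effect differed between the inhibitors was tested with the 12 libraries fitted together, as the pTEADi effect minus the SW-682 effect. Doses and durations are not given, so this sets the experiments side by side as run. None of 44 members passed in edgeR, and 2 of 15447 genes did (0.0129%). At an unadjusted p under 0.05, 12 of 44 differed, all toward a larger fall with pTEADi, against 3.37% of all genes in that direction, and 36 of 44 differences were negative with a median of -0.27, beside 48.0% negative and a median of 0.013 over all genes. DESeq2 and limma-voom also called none. The largest difference was RSAD2 at -2.68 ± 0.70 (unadjusted p = 0.00175, adjusted p = 0.423). MX2 differed by -0.55 ± 0.15 (adjusted p = 0.449), IFIT3 by -1.26 ± 0.37 (adjusted p = 0.51), OASL by -1.15 ± 0.39 (adjusted p = 0.593) and ISG15 by -1.07 ± 0.37 (adjusted p = 0.598). PARP14 and SAMD9L had positive differences, 0.26 ± 0.17 and 0.31 ± 0.19. With no low-count filter 10 members passed, against 1.33% of all genes in that fit. Without smTEADi 1, 1 member passed, IFI6 at -1.12 ± 0.16 (adjusted p = 0.0347), for which the alternatives gave adjusted p of 0.00313 to 0.959.

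**Figure D4:**
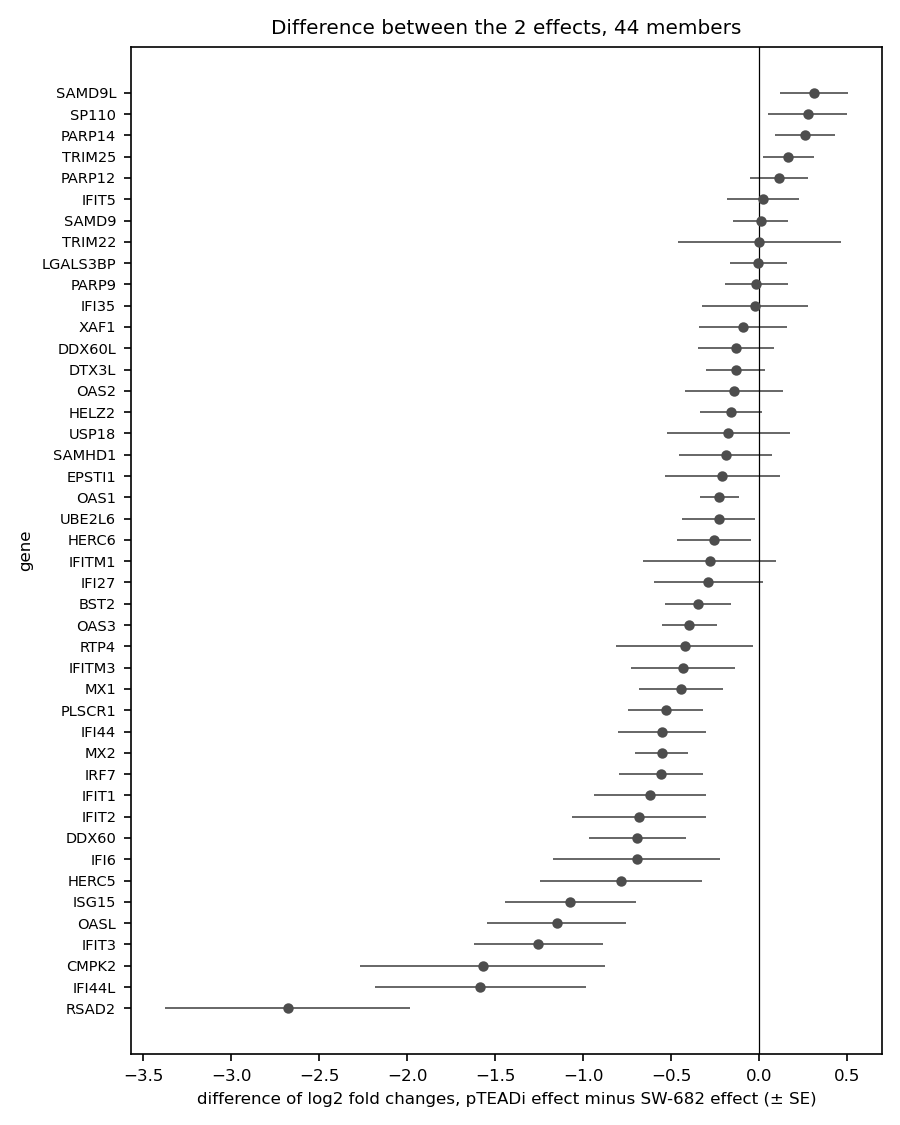
Difference of log2 fold changes, pTEADi minus SW-682, for each tested member with its standard error. Most points lie left of 0, from RSAD2 at -2.68 to SAMD9L at 0.31, and none passed the adjusted threshold.

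The genes that carry the interferon signal were followed from ligand to transcription factor. Of 12 interferon ligand genes, 10 were under 10 counts in every library and IFNG, IFNA5 and IFNW1 were at 0. IFNB1 reached at most 1 count and IFNL1 had 0 to 9 counts. IFNE, an epithelial interferon, had 58 to 128 counts per library and IFNA1 had 2 to 28, and neither passed in either comparison. Among 13 genes for receptors, JAK kinases, STAT factors and IRF9, JAK1 alone passed with SW-682, where 816 of 14816 genes passed in either direction. With pTEADi 3 fell and 1 rose, beside 13.6% of all genes tested that fell, and the median log2 fold change was -0.045. IRF9 had 59.8, 60.2 and 62.7 CPM in Vehicle against 41.6, 45.6 and 51.5, and 70.9, 65.7 and 60.5 in Control against 49.6, 50.9 and 43.5. Among the pTEADi falls were 0.46 ± 0.10 for IRF9 and 0.32 ± 0.09 for STAT2. With SW-682 their log2 fold changes were -0.40 ± 0.10 and -0.37 ± 0.10, which did not pass. JAK1, the kinase shared by the receptors, rose by 0.46 ± 0.11 and 0.33 ± 0.11. The number of pTEADi calls in this list dropped from 4 to 1 without Control 1, 1 without pTEADi 2 and 2 without pTEADi 3. The SW-682 count of 1 became 0 without Vehicle 1, without Vehicle 3 or without any single smTEADi library. It was 5 with DESeq2 (1911 of 14816 genes passed) and 5 with all 12 libraries in 1 fit (2293 of 15447). With no low-count filter it was 4 (2108 of 26291).

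Several sensors of foreign nucleic acids are themselves interferon-induced in part. Of 13 sensors and adaptors tested, 3 fell with SW-682 and 6 with pTEADi, against 3.48% and 13.6% of all genes tested that fell. RIGI, the RNA sensor RIG-I, fell by 1.03 ± 0.22 and 1.70 ± 0.15 on the log2 scale, IFIH1 (MDA5) by 0.62 ± 0.13 and 0.99 ± 0.12, and AIM2, a DNA sensor, by 1.39 ± 0.23 and 1.29 ± 0.21. DHX58 fell with pTEADi by 0.80 ± 0.16. Of 9 genes that restrain the signal, none passed with SW-682. At an unadjusted p under 0.05, 2 of the 9 (SOCS3 and ADAR) were lower, where 14.0% of all genes were. SOCS3, ADAR and PTPN2 fell with pTEADi, by 1.40 ± 0.35, 0.33 ± 0.08 and 0.38 ± 0.10. These 3 of 9 stand beside 13.6% of all genes that fell, and the count became 0 without pTEADi 2. A list of 28 other interferon-induced genes holds no member but repeats some genes of the other lists, RIGI and IFIH1 among them. In it, 8 fell and 1 rose with SW-682, beside 3.48% of all genes that fell. With pTEADi 18 fell and 1 rose, beside 13.6% of all genes that fell. APOL6 fell by 0.82 ± 0.17 and 1.37 ± 0.16, and ZC3HAV1, an antiviral RNA-binding protein, by 0.98 ± 0.17 and 1.13 ± 0.15. For SW-682, the sensor count was 0 without Vehicle 1, Vehicle 3 or smTEADi 3, and the calls of the 28-gene list became 0 without those same libraries, 2 without smTEADi 1 and 4 without smTEADi 2.

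**Figure D5:**
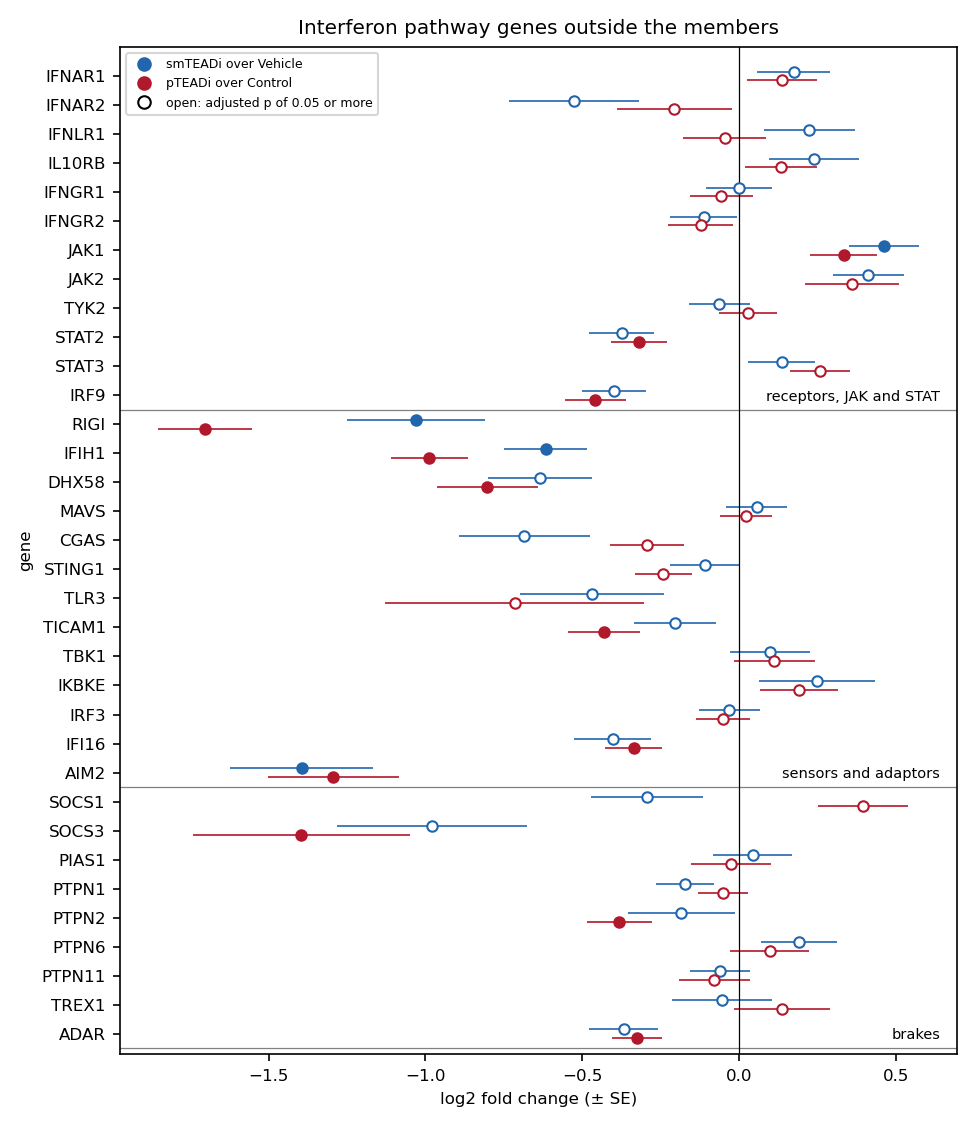
Log2 fold change with standard error for selected genes of the interferon pathway outside the members, with SW-682 and with pTEADi. Filled points passed the adjusted threshold and open points did not. RIGI, AIM2 and SOCS3 lie among the lowest, and JAK1 is filled and to the right of 0 in both.

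Markers of other cells were measured beside these falls. The summed CPM of 12 leukocyte markers was 34.9 to 44.6 in Vehicle and 35.8 to 55.4 with SW-682, and 47.7 to 72.7 in Control and 36.2 to 42.1 with pTEADi. PTPRC, the pan-leukocyte marker, had 0 to 1 counts in every library. Of the 5 tested markers, CD74 and CSF1R fell with pTEADi, where 13.6% of all genes fell, and none passed with SW-682. CD74 is also in the list of genes associated with interferon-gamma, so it does not mark leukocytes alone. Of 5 endothelial markers, 4 were under 10 counts in every library, with KDR at 0. The fifth, VWF, rose with pTEADi by 1.19 ± 0.19 and gave 1.14 ± 0.30 with SW-682 (adjusted p = 0.056), and in both experiments the treated libraries were all above the controls. The summed CPM of the 5 was 15.9 to 33.1 in Vehicle and 35.9 to 63.6 with SW-682, and 13.02 to 21.2 in Control and 30.9 to 41.9 with pTEADi. For 6 fibroblast markers the summed CPM was 72.7 to 92.7 in Vehicle and 83.65 to 89.8 with SW-682. It was 95.5 to 114.3 in Control and 96.3 to 136.5 with pTEADi. The smTEADi 1 library, the lowest of its group in most members, had the lowest squamous sum of that group (42460). Its leukocyte (55.4) and endothelial (63.6) sums were the highest of that group. The part of these other cells in the result was not tested, and the handling of mouse reads is not given in the sources used here.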

How the data were processed

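Poly-T selected RNA of 12 Cal33 xenograft libraries was sequenced in paired 150 bp reads. Alignment by the authors used STAR 2.7.9a, the GRCh38 genome and Gencode 38, and they deposited expected counts per gene made by RSEM 1.3.1, per the labels and the submitters' processing notes, with 1 table per experiment and no scaling between libraries. The strand setting and the handling of mouse reads are not given in the sources used here. Both tables list 60649 IDs, of which 44 Y copies of pseudoautosomal genes were left out and 142 had no symbol in Gencode 44.

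Rounded expected counts went into edgeR 4.0.16 under R 4.3.3 (filterByExpr at a minimum count of 10, TMM, quasi-likelihood F test, two-sided, Benjamini-Hochberg adjusted p of 0.05), each treatment against its own control and the difference of effects in 1 fit of 12 libraries. The standard error is the log2 fold change divided by the square root of F. Printed CPM are TMM-scaled over 12 libraries, and RPKM divides them by the Gencode 44 canonical transcript length. Alternatives were RLE and upper-quartile scaling, TMM without the members, other low-count filters, DESeq2 1.42.0, limma-voom (limma 3.58.1), unrounded counts, an adjusted p of 0.01, protein-coding genes only, a shared spread, a replicate block and the omission of each library. The default edgeR, limma-voom and DESeq2 fits were run on data simulated with the spread of all 12 libraries, and the other alternatives were not. That check set limits on the recovery of 4-fold changes and on the error of the fold changes, not on false calls.

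The members and lists were chosen with earlier results of these data known. Values are given in full for the 1 or 2 most abundant members of each subfamily, the 2 largest and 2 smallest changes per comparison, members with a positive change and the untested member. Outside the members, up to 4 genes per list with the smallest pTEADi p were named, plus STAT2 and IRF9. Some genes of these lists are not reported here. Promoter windows are from RefSeq (GRCh38.p14). RSEM shares reads between similar genes: counts were not whole for 10 members (IFITM1, IFITM3, MX1, USP18, IFI6, RSAD2, CMPK2, SAMHD1, SP110 and XAF1), and 13 members overlap a protein-coding gene on the other strand.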

Additional observations from a re-analysis of the deposited data

How the results depend on the processing

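No change of a member that passed reversed under any alternative run. SAMD9, which passed in neither experiment, changed sign in 2 alternatives for SW-682 and in 2 for pTEADi. Some differences of effects that did not pass also changed sign, TRIM22 in 10 alternatives, LGALS3BP in 9 and SAMD9 in 8. The SW-682 count of 24 depended on the setting, as did the number of all genes passing, 816 of 14816 in the main fit. The member count was 38 with no low-count filter (2108 of 26291 genes passed) and 37 with DESeq2 (1911 of 14816). It was 38 with all 12 libraries in 1 fit (2293 of 15447) and 0 at an adjusted p of 0.01 (0 of 14816). When a library was left out it was 0 to 29, with 0 to 1639 of all genes passing. The pTEADi count of 40 stayed between 37 and 40, with 2137 to 4377 of all genes passing. The difference between inhibitors, with 0 members called, gave 10 with no low-count filter, and 0 to 1 when a library was left out. The median log2 fold change lay between -0.93 and -0.66 with SW-682 and between -1.14 and -1.08 with pTEADi when a library was left out. The causes were not tested. Replicate numbers did not pair the libraries: deviations of same-numbered libraries correlated at -0.152 to 0.147 across genes. With a replicate block 0 members were called for SW-682, where 0 of 14816 genes passed, and 39 for pTEADi, where 3706 of 14692 did. Depth limits IFITM2, at most 6 counts, and the ligand genes.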

Other observations

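Genes associated with interferon-gamma, the type II interferon made by lymphocytes, moved in part with the members. Of 16 such genes 12 were tested, and CXCL9 and IDO1 were at 0 counts in every library. With SW-682, 2 fell and 1 rose, beside 3.48% of all genes that fell. With pTEADi 8 fell and 1 rose, beside 13.6% of all genes that fell. APOL1 fell by 0.58 ± 0.11 and 1.38 ± 0.14 on the log2 scale, and WARS1, the tryptophan tRNA ligase, by 1.19 ± 0.18 and 1.47 ± 0.18. The guanylate-binding proteins did not all move 1 way: GBP1, GBP4 and GBP5 fell with pTEADi, by 0.94 ± 0.13, 1.37 ± 0.22 and 1.28 ± 0.30, while GBP2 rose in both, by 0.83 ± 0.18 with SW-682 (edgeR adjusted p = 0.0411) and 0.76 ± 0.12 with pTEADi (adjusted p = 0.000874). IRF1, the factor that drives many of these genes, fell by 1.02 ± 0.16 with pTEADi and gave -0.51 ± 0.14 with SW-682 (adjusted p = 0.0634). For SW-682 the 3 calls became 0 without Vehicle 1, Vehicle 3 or smTEADi 3, and 6 without Vehicle 2.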
